A study of Homo sapiens with 8 samples.

Results

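Transcript levels in cells overexpressing SETDB1 were set against those in cells carrying an empty vector, in HT144, an established human melanoma line whose source the labels give as a melanoma metastasis. The comparison rests on 5 of the 8 bead arrays of the series, chosen by their titles: 2 arrays labelled SETDB1 OE and 3 labelled empty vector. The other 3 arrays carry HC/KA-SETDB1 OE, a mutant SETDB1 whose letters the sources used here do not spell out. They entered the same model, so the spread between arrays was estimated over all 3 groups. All arrays share the line, and the labels name no promoter, clone, selection or time after transduction. They do not say that replicates came from separate cultures either, so the p-values speak of the spread among these samples alone, and that spread may be technical.

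SETDB1 is a lysine methyltransferase that places methyl groups on histone H3 at lysine 9 in euchromatin, usually after TRIM28 (KAP1) and a zinc finger protein have brought it to a sequence. The mark is read by HP1 proteins and keeps genes and endogenous retroviruses silent. The SETDB1 gene is amplified in a share of melanomas. Melanoma cells also differ in state: a melanocytic state, held by the transcription factor MITF, expresses pigment enzymes, while a dedifferentiated state has low MITF and high AXL, inflammatory cytokines and matrix proteases.

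The labels were checked first on SETDB1 itself. Its single passing probe, ILMN_1718207, read 8.0 and 7.66 in SETDB1 OE, against 8.25, 8.19 and 8.04 in empty vector (normalized log2 intensity, as for all array values that follow). Both SETDB1 OE arrays lay below all empty vector arrays, at a log2 fold change of -0.33 (limma adjusted p = 0.692, SE 0.24). It was -0.50 to -0.16 under the alternative settings, so this probe shows no overexpression and gives no check of the label. On the HC/KA-SETDB1 OE arrays the same probe read 8.32, 8.42 and 9.0, above all empty vector arrays. Why the 2 constructs differ at this probe was not tested. The sources used here do not place the probe relative to the construct, and a probe outside the transcribed part of a construct would not read it. The groups below are therefore the libraries labelled SETDB1 OE and empty vector.

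The 5 arrays were alike in depth, as the 8 arrays had median intensities of 89.0 to 94.4 and 44.6% to 45.7% of probes detected. Over all genes the SETDB1 OE pair correlated at 0.984, SETDB1 OE with empty vector at 0.966 to 0.983, and the empty vector arrays among themselves at 0.979 to 0.988. Markers of the pigment cell lineage were present, with 7 of 8 listed markers measured and all 7 detected on every array. Of other cell types, 1 of 6 epithelial, 5 of 6 fibroblast, 2 of 5 blood and 2 of 4 endothelial markers were measured, and none of them passed the test. All arrays lay on 1 chip, with the position on it tied to the group, so position and group cannot be told apart.

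Of 13974 genes tested, 37 passed an adjusted p of 0.05 (limma, Benjamini-Hochberg over all genes), which is 0.265% of them. In SETDB1 OE 28 rose (0.200%) and 9 fell (0.0644%), and with arrays scaled to their 75th percentile 27 rose and 14 fell. The fitted rises spanned 2.20-fold (AOX1) to 15.1-fold (MMP3) and the falls 2.6-fold to 4.49-fold. No empty vector array detected AOX1, for which at least 1.94-fold can be stated. Sizes depended on the setting. Over the 18 alternatives the log2 rise was 2.35 to 4.22 for MMP3 and 1.02 to 2.41 for ANKRD1. By the probes used, SCG5, PSG3 and AOX1 were detected on no array outside SETDB1 OE. They passed the detection filter (2 or more arrays) through that group alone, so only a rise could be found for them. ANKRD1, KRT80 and SLC22A4 were detected on 1 other array each and also needed SETDB1 OE to pass. At an unadjusted p under 0.05 there were 718 higher and 795 lower genes, 1513 in all, where 698.7 are expected by the threshold alone. The median log2 fold change over all genes was -0.0011, with quartiles of -0.22 and 0.21. The 2 SETDB1 OE arrays both lay above the 3 empty vector arrays for 2191 genes (15.7%) and both below for 2287 (16.4%), and these shares are the background for the counts of non-overlapping members given below.

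Which genes passed depended on the arrays in the fit. With any 1 of the 5 arrays left out, 11 to 24 genes rose and 0 to 3 fell. Leaving out SETDB1 OE replicate 1 left 11 rises and no fall (345 falls at an unadjusted p under 0.05), and leaving out empty vector replicate 1 left 14 rises and no fall (772 at the unadjusted threshold). Empty vector replicate 2 was the highest empty vector array for 24 of the 28 risers and the lowest for 6 of the 9 fallers, against 28.9% and 31.3% of all genes, so it lay nearer to SETDB1 OE at most called genes. Without it 24 genes rose, 3 fell, and 21 of the 37 kept their call. Leaving the HC/KA-SETDB1 OE arrays out of the fit gave 73 rises (0.522%) and 82 falls (0.587%), among them all 37 genes. Leaving out a single one of them gave 58 rises and 45 falls without replicate 1, 40 and 31 without replicate 2, and 15 and 2 without replicate 3. Leaving out empty vector replicate 3 gave 14 and 1, and SETDB1 OE replicate 2 gave 19 and 2.

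**Figure D1:**
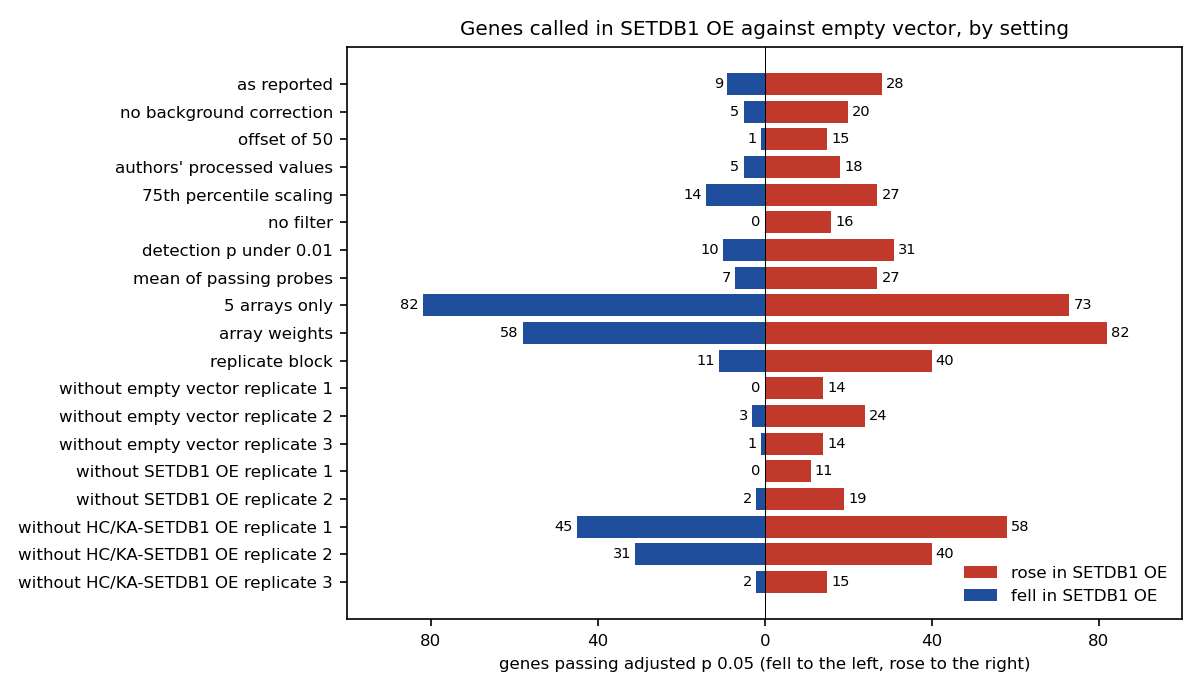
Number of genes that passed an adjusted p of 0.05 in SETDB1 OE against empty vector, with rises as bars to the right and falls as bars to the left of 0, for the reported setting at the top (28 and 9) and for 18 alternatives. Rises outnumber falls in every setting except the fit on 5 arrays (73 and 82).

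The call was kept under all 18 alternative settings by 10 genes: MMP3, THBS1, SPANXA1, SPANXA2, SPANXB1, SPANXC, SCG5, CD24, ANKRD1 and RAB27B. The others kept it in 7 to 17 of them, with IL7R at 17 and SPANXD, TAC1 and UCA1 at 16. No called gene changed direction under any of the 18. SETDB1 OE and empty vector arrays did not overlap at any called gene. Settings that leave out or weight arrays therefore could not reverse one. On the plot of the called genes by array, SETDB1 OE lay apart from empty vector and HC/KA-SETDB1 OE at nearly all of them. All 28 risers were higher on both SETDB1 OE arrays than on the 6 other arrays, and 8 of the 9 fallers were lower. The exception was CEACAM1.

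**Figure D2:**
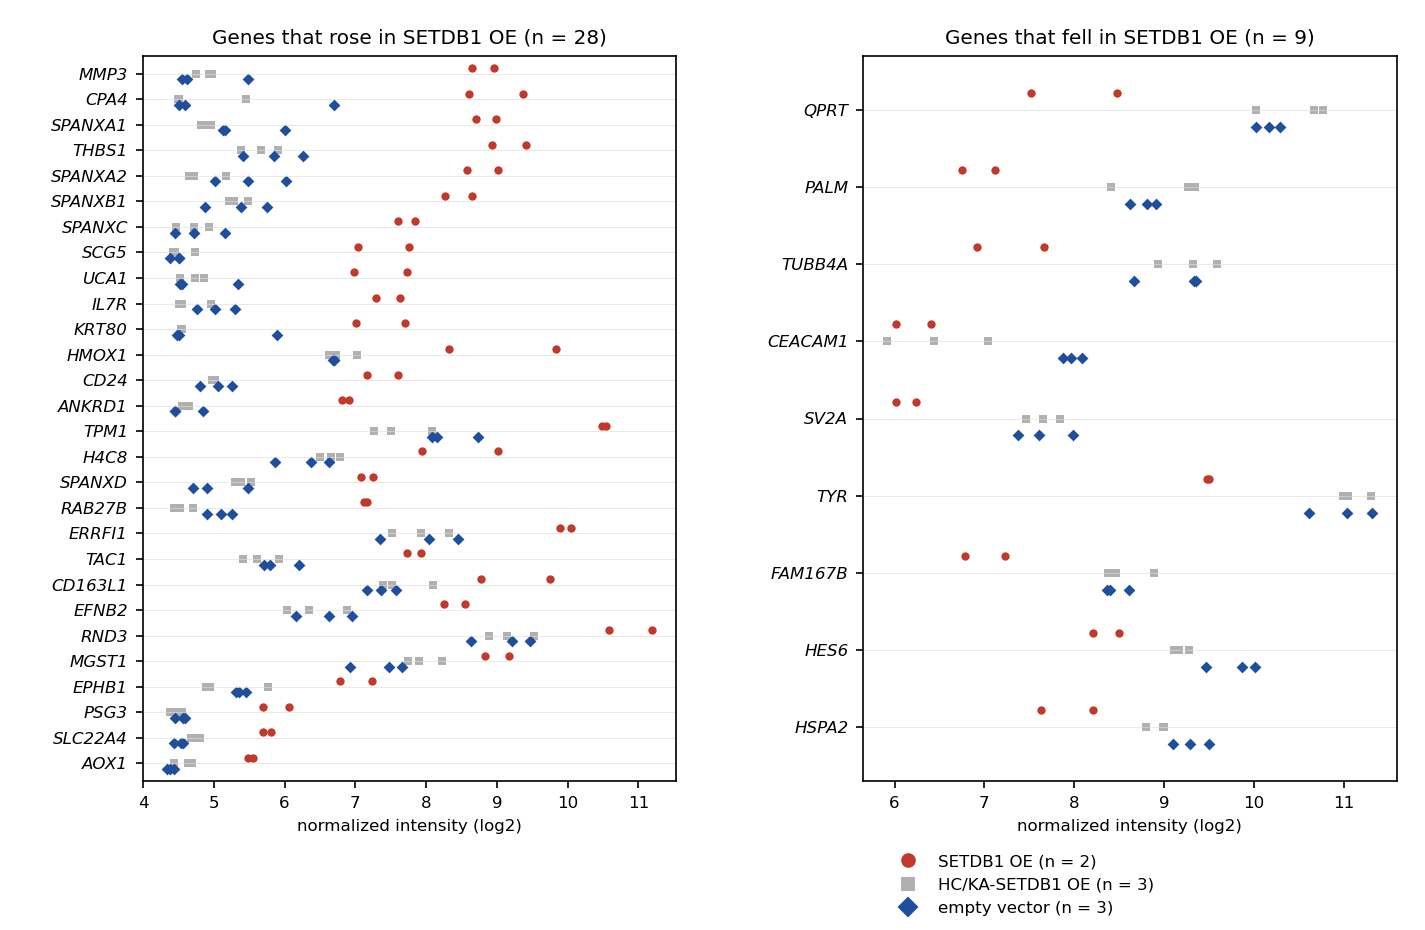
Normalized log2 intensity of the 28 genes that rose and the 9 that fell, 1 point per array, with SETDB1 OE (2 red circles) above HC/KA-SETDB1 OE (3 grey squares) and empty vector (3 blue diamonds) on each line. The red points stand to the right of all others for every riser and to the left for every faller but CEACAM1, whose grey points overlap with the red ones.

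The largest rises among called genes were those of MMP3 and CPA4, both secreted proteases. MMP3, stromelysin-1, a secreted metalloprotease that cuts many matrix proteins and activates other metalloproteases, read 8.96 and 8.64 in SETDB1 OE, against 4.62, 5.48 and 4.55 in empty vector. Both SETDB1 OE arrays detected it, and 1 of the 3 with empty vector did. MMP3 rose 15.1-fold, a log2 change of 3.92 (SE 0.28, adjusted p = 0.000537). CPA4, a carboxypeptidase, read 8.61 and 9.36 in SETDB1 OE, against 4.50, 6.70 and 4.59 in empty vector. Its empty vector replicate 2 stood well above the other 2 arrays, and was the only one with CPA4 detected. The log2 rise was 3.72 (SE 0.59, adjusted p = 0.0390), and 4.44 without that array (adjusted p = 0.00142). It did not pass without any one of the other 4 arrays of the comparison, at adjusted p of 0.140 to 0.30.

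THBS1, thrombospondin 1, a secreted glycoprotein that binds matrix, cell receptors and latent TGF-beta, read 9.41 and 8.93 in SETDB1 OE, against 5.85, 6.26 and 5.41 in empty vector. The groups lay far apart, at a log2 rise of 3.33 (SE 0.28, adjusted p = 0.000537). The other thrombospondins did not share it. THBS2 read 4.74 and 5.03 against 5.93, 5.36 and 5.37, and THBS3 6.70 and 7.57 against 7.86, 8.0 and 7.93, SETDB1 OE first, with log2 fold changes of -0.67 (adjusted p = 0.515) and -0.80 (adjusted p = 0.370). THBS4 was at the detection limit in both groups. Thus 1 of the 4 measured thrombospondin genes rose, and THBS2 and THBS3 lay lower on both SETDB1 OE arrays than on any empty vector array.

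Among the 22 measured genes of the metalloprotease list, which also holds the ADAMTS proteases, MMP3 alone passed. On both SETDB1 OE arrays 10 of the 22 lay above empty vector (45.5%, against 15.7% of all genes) and 2 below, and the median log2 fold change was 0.28. Against the empty vector mean that median was 0.07 on SETDB1 OE replicate 1 and 0.35 on replicate 2. MMP1, interstitial collagenase, read 7.34 and 8.26 in SETDB1 OE, against 4.55, 6.19 and 5.44 in empty vector. ADAMTS9, which cuts proteoglycans, read 7.48 and 7.88 against 5.96, 6.44 and 5.79 in the same order. The 2 genes had log2 fold changes of 2.41 (adjusted p = 0.135) and 1.62 (adjusted p = 0.125), and both passed in the fit on the 5 arrays (adjusted p = 0.0371 and 0.0244). MMP10, the nearest relative of MMP3, gave no detected signal in empty vector or HC/KA-SETDB1 OE and stood at least 1.48-fold higher (adjusted p = 0.262). It passed the detection filter through SETDB1 OE alone, so it could only be counted on the higher side. MMP7 and MMP20 had no detected signal in empty vector either, and also needed SETDB1 OE to pass. The count of members above empty vector was thus partly set by the filter. The gelatinase MMP2 and the membrane protease MMP14 had log2 fold changes of 0.27 and 0.09, so the difference was uneven across the family.

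The protease inhibitor and plasminogen list had 18 measured genes, of which only CPA4 passed, with a median of 0.17. Without overlap 4 members lay above and 4 below (22.2% each, against 15.7% and 16.4% of all genes). The median was -0.04 on SETDB1 OE replicate 1 and 0.44 on replicate 2, so its sign rests on replicate 2. TFPI2, a matrix-bound inhibitor of serine proteases, read 6.72 and 7.14 in SETDB1 OE, against 5.24, 6.11 and 4.98 in empty vector (log2 1.49, adjusted p = 0.0934). SERPINB8 read 7.57 and 7.64 against 5.28, 6.60 and 6.0 (log2 1.65, adjusted p = 0.194). On the lower side, the antiangiogenic serpin SERPINF1 read 4.46 and 4.84 in SETDB1 OE, against 7.45, 6.24 and 6.49 in empty vector, and the broad protease inhibitor A2M 9.23 and 9.52 against 10.34, 10.86 and 10.61. Their log2 fold changes were -2.08 (adjusted p = 0.240) and -1.23 (adjusted p = 0.123), so inhibitors lay on both sides.

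The SPANX genes, X-linked genes normally read in the testis and also found in melanomas, had 5 called members of 6 measured and 10 listed, all higher. SPANXA1 read 8.98 and 8.71 in SETDB1 OE, against 5.14, 6.0 and 5.16 in empty vector. SPANXB1 read 8.64 and 8.26, against 5.38, 5.75 and 4.87, and SPANXC 7.84 and 7.61, against 4.45, 5.16 and 4.72. In each, every SETDB1 OE array was more than 2 log2 units above the highest empty vector array. SPANXA2 read 9.01 and 8.57, against 5.02, 6.01 and 5.49, and SPANXD 7.25 and 7.08, against 4.90, 5.48 and 4.70. Log2 rises were 3.42 for SPANXA1, 3.29 for SPANXA2, 3.12 for SPANXB1, 2.95 for SPANXC and 2.14 for SPANXD (SE 0.25 to 0.30), with adjusted p of 0.000537 to 0.00475. The other measured member, SPANXN3, was already expressed in empty vector cells: it read 8.71 and 7.88 in SETDB1 OE, against 7.78, 7.50 and 7.70 in empty vector (log2 0.64, adjusted p = 0.437). SPANXN1, SPANXN2, SPANXN4 and SPANXN5 had probes that did not pass detection.

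These genes are near-copies, and a probe may read more than 1 of them. Which of the A, B, C and D genes rose, and how many, therefore cannot be told from these probes. The 4 passing SPANXD probes and the 2 of SPANXA1 were all higher on both SETDB1 OE arrays than on any empty vector array. For SPANXB1, 2 further probes were detected on none of the 5 arrays. The family's median log2 fold change was 3.04, against -0.0011 over all genes. The MAGE family, another set of X-linked cancer-testis genes, had none of 19 measured members called (1 higher and 0 lower at an unadjusted p under 0.05) and a median of 0.05. Other cancer-testis genes, 29 measured, had none called (2 higher and 1 lower at the unadjusted threshold) and a median of 0.11. LDOC1, the measured neighbour of SPANXC in the RefSeq gene order, had a log2 fold change of 0.14 (adjusted p = 0.896).

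The promoters are shown because they relate SPANX genes whose probes rose to the one that did not pass. Each line gives the 150 bases before the annotated start on the minus strand (RefSeq, GRCh38.p14), in lower case. Capitals mark bases that differ from SPANXA1 or that SPANXA1 lacks. The positions are chrX:141584739-141584888 for SPANXA1, chrX:141242518-141242667 for SPANXC and chrX:143517476-143517625 for SPANXN3.
SPANXA1: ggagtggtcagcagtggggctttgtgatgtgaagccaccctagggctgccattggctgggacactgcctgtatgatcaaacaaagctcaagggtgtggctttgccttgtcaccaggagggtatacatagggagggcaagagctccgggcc
SPANXC: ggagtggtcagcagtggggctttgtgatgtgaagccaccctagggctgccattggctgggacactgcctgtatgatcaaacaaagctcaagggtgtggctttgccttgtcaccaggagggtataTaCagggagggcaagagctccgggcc
SPANXN3: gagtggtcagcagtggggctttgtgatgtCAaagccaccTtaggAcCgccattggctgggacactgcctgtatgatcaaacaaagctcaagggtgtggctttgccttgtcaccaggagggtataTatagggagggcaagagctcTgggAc
SPANXC differs from SPANXA1 at 2 of these bases. SPANXN3 has 8 capitals, 1 of them a base that SPANXA1 lacks, and itself lacks 1 base of SPANXA1. Over the 250 bases before the start, SPANXA1 was identical to SPANXA2 at 100% of aligned positions, to SPANXC at 98.8%, to SPANXN3 at 93.6%, to SPANXB1 at 71.7% and to SPANXD at 51.9%. These identities describe the sequences only. The level that unrelated windows reach was not determined, so 51.9% does not show a related promoter.

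Single genes of the YAP and contractile lists rose, together with RND3 and the keratin KRT80. ANKRD1, a nuclear ankyrin-repeat protein and a widely used readout of the coactivators YAP and TAZ, which act through TEAD factors, read 6.91 and 6.81 in SETDB1 OE, against 4.45, 4.85 and 4.45 in empty vector. It was detected on 1 empty vector array and rose by a log2 of 2.28 (SE 0.20, adjusted p = 0.000675). TPM1, a tropomyosin that lines actin filaments, read 10.54 and 10.49 in SETDB1 OE, against 8.15, 8.74 and 8.09 in empty vector. It rose by 2.19 (SE 0.28, adjusted p = 0.0108), and another bright probe had 2.28. Both other TPM1 probes, near the detection limit, had -0.0008 and 0.08. RND3 read 11.19 and 10.59 in SETDB1 OE, against 9.21, 9.47 and 8.63 in empty vector (log2 1.79, SE 0.30, adjusted p = 0.0489). KRT80, a type II keratin, read 7.71 and 7.0, against 4.47, 5.89 and 4.51 (log2 2.39, SE 0.39, adjusted p = 0.0448).

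Of 27 measured YAP and TEAD targets, ANKRD1 alone passed, 11 lay above empty vector without overlap (40.7%) and 2 below, and the median was 0.37. AXL, a receptor tyrosine kinase, read 10.92 and 10.56 in SETDB1 OE, against 9.56, 9.64 and 9.46 in empty vector (log2 1.19, adjusted p = 0.0837), and NT5E, the ectonucleotidase CD73, 9.23 and 9.25, against 7.58, 8.34 and 7.22 (log2 1.53, adjusted p = 0.123). Both passed in the fit on the 5 arrays. The 2 most cited targets of the pathway, CCN1 and CCN2, were too variable to place. CCN1 read 9.59 and 9.79 in SETDB1 OE and 9.82, 8.17 and 6.32 in empty vector, so its groups overlapped. Of 28 measured contractile and SRF genes TPM1 alone passed, 8 lay above without overlap and 1 below, and the median was 0.18. TAGLN read 7.38 and 7.86, against 5.13, 6.69 and 6.04 (log2 1.67, adjusted p = 0.123), and CAV1, the caveolar coat protein, 11.25 and 11.35, against 10.53, 10.41 and 9.92 (log2 1.01, adjusted p = 0.118).

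Promoter letters were searched in the 250 bases before the start, on both strands, for 6 motifs. A RefSeq window was found for 32 of the 37 called genes, which are 24 risers and 8 fallers. The TEAD motif, GGAATG, lay in 6 of the 24 riser windows (25%: CPA4, THBS1, ANKRD1, H4C8, SPANXD and SLC22A4), in 1 of the 8 faller windows (CEACAM1) and in 9.68% of the windows of all tested genes. The AP-1 motif, TGANTCA, lay in 3 riser windows (CPA4, ANKRD1 and SPANXD) and in 4.38% of all. The NF-kappaB motif, GGANTTTCC, lay in no riser window and in 1.45% of all. The CRE motif, TGACGTCA, lay in 1 riser window and in 2.83% of all, and the E-box CACGTG in 3 and in 8.70% of all. A match describes letters and shows neither a bound site nor a cause. Of the 4 risers with the TEAD motif in the 150 bases before the start, all but SPANXD are shown, with it in capitals, and with AP-1 matches of CPA4 also in capitals. The stretches are the 150 bases before the start, at chr15:39580929-39581078 on the plus strand for THBS1, chr10:90921088-90921237 on the minus strand for ANKRD1 and chr7:130293011-130293160 on the plus strand for CPA4.
THBS1: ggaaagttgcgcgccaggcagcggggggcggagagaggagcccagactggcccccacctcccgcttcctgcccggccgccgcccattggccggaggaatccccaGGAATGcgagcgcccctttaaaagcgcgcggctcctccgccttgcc
ANKRD1: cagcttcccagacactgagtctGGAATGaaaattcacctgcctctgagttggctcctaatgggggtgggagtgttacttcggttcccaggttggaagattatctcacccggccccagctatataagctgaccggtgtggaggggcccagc
CPA4: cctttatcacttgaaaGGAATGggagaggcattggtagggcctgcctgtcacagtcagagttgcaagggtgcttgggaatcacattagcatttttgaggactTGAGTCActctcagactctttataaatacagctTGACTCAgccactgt
The TEAD match begins 46 bases before the start in THBS1, 128 in ANKRD1 and 134 in CPA4, and the AP-1 matches of CPA4 begin 48 and 15 bases before it.

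Cytokine signalling held 1 called gene, IL7R, the alpha chain of the receptor for interleukin 7. It read 7.63 and 7.29 in SETDB1 OE, against 4.76, 5.29 and 5.02 in empty vector, and rose by a log2 of 2.43 (SE 0.24, adjusted p = 0.00115). A second, dimmer probe had 0.59, in the same direction. Of the 26 measured inflammatory cytokines and chemokines 10 lay above empty vector without overlap (38.5%) and 3 below, with a median of 0.41. IL6 read 9.18 and 6.92 in SETDB1 OE, against 4.38, 5.65 and 4.66 in empty vector (log2 3.15, SE 0.56, adjusted p = 0.0559). Its 2 SETDB1 OE arrays differed by more than 2 log2 units, among the widest gaps of any gene. IL1B read 6.89 and 6.60, against 4.54, 5.67 and 4.47 (log2 1.85, adjusted p = 0.0583), and CXCL8, the neutrophil attractant interleukin 8, 12.98 and 11.16, against 9.91, 10.27 and 8.84 (log2 2.40, adjusted p = 0.123). PTGS2, the inducible prostaglandin synthase, read 9.11 and 9.10, against 7.77, 7.89 and 6.68 (log2 1.66, adjusted p = 0.123). In the fit on the 5 arrays IL6 and IL1B passed and CXCL8 and PTGS2 did not.

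The cytokine list moved more on one SETDB1 OE array than on the other. Against the empty vector mean its median was 0.73 on replicate 1 and 0.13 on replicate 2. The NF-kappaB list, with 22 measured genes and none called (6 higher and 1 lower at an unadjusted p under 0.05), had 0.70 on replicate 1 and -0.02 on replicate 2. TNFAIP3, a feedback inhibitor of the pathway, read 8.26 and 6.53 in SETDB1 OE, against 6.27, 6.16 and 6.08 in empty vector (log2 1.22, adjusted p = 0.305), and the subunit gene RELB 6.96 and 5.62, against 5.52, 5.32 and 4.73 (log2 1.10, adjusted p = 0.365). SOD2, a mitochondrial superoxide dismutase that the pathway induces, was more even, at 10.55 and 10.09, against 9.15, 9.48 and 8.69 (log2 1.21, adjusted p = 0.123). The median of the NF-kappaB list thus rests on SETDB1 OE replicate 1.

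**Figure D3:**
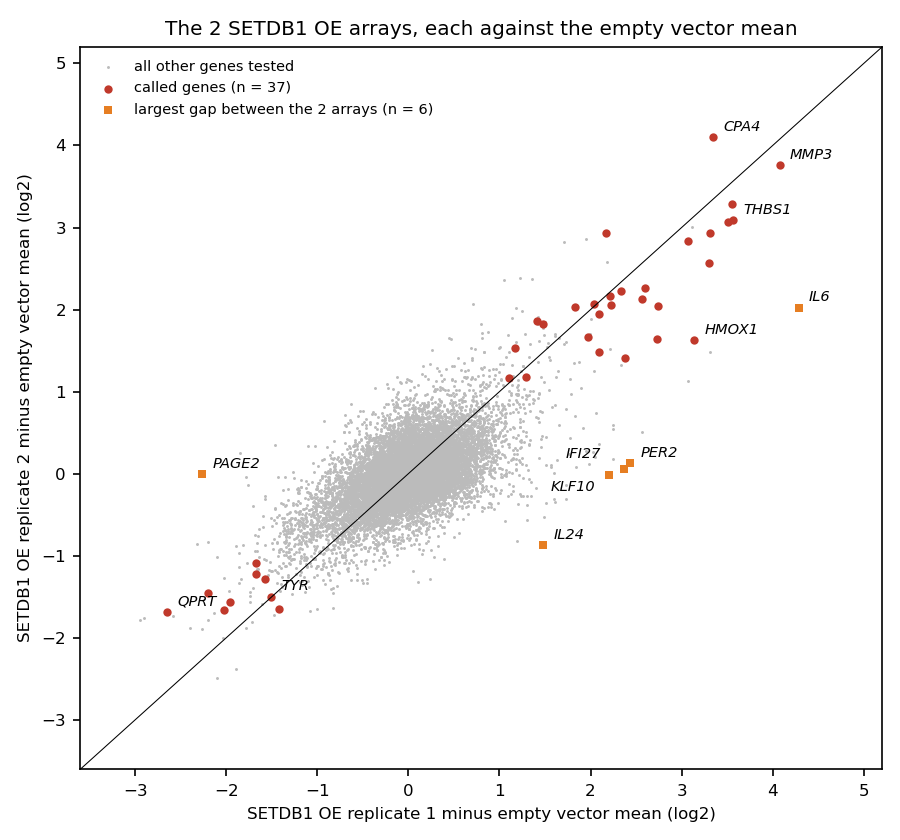
Difference of each gene from the empty vector mean (log2) on SETDB1 OE replicate 1 (horizontal) and replicate 2 (vertical), with the 37 called genes in red, the 6 genes with the widest gap between the 2 arrays as orange squares and the other tested genes in grey. The called genes lie near the line of equal values, with HMOX1 the farthest from it (gap 1.51), while IL6, PER2, IFI27, KLF10 and IL24 lie far to its right and PAGE2 to its left.

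The 6 widest gaps between the 2 SETDB1 OE arrays were those of IL24, PER2, IFI27, IL6, PAGE2 and KLF10. IL24 read 12.65 and 10.29, the clock gene PER2 8.40 and 6.09, and the interferon-induced IFI27 7.72 and 5.42. PAGE2, a cancer-testis gene, went the other way with 6.29 and 8.55. None of these 6 passed. Over all genes the gap had a median of 0.24 and a 95th percentile of 0.78, close to the 0.24 and 0.82 between empty vector arrays. Of the called genes 4 exceeded that percentile. Replicate 1 was the higher array for 20 of the 28 risers and the lower for 8 of the 9 fallers.

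Growth factor and MAPK genes included ERRFI1 (MIG6), a feedback inhibitor of the EGF receptor, which read 10.04 and 9.89 in SETDB1 OE, against 8.04, 8.45 and 7.35 in empty vector and rose by a log2 of 2.02 (SE 0.33, adjusted p = 0.0424). The EGF list holds EGF family ligands and receptors, and also AXL, receptors of other growth factors and the inhibitor ERRFI1. Of its 18 measured genes, 13 lay above empty vector without overlap (72.2%) and 3 below, ERRFI1 alone passed, and the median was 0.50. The ligand gene NRG1 read 5.72 and 5.36 in SETDB1 OE and was at least 1.95-fold higher (adjusted p = 0.0785). It was below detection in all empty vector and HC/KA-SETDB1 OE samples, so it passed the filter through SETDB1 OE alone and could only lie above. TGFA, another ligand of the EGF receptor, read 9.80 and 9.56, against 8.69, 9.11 and 8.47 (log2 0.92, adjusted p = 0.221). NGFR, the low-affinity neurotrophin receptor, read 7.28 and 7.15, against 4.62, 5.85 and 6.17 (log2 1.67, adjusted p = 0.284). These 3 did not overlap between the groups, while 5 of the 18 members had a negative fold change. The AP-1 and MAPK output list, 31 measured, had none called (4 higher and 1 lower at an unadjusted p under 0.05) and a median of 0.31. Its FOSL1, an AP-1 subunit, read 8.50 and 8.06, against 6.42, 7.27 and 6.97 (log2 1.40, adjusted p = 0.0869). The TGF-beta and BMP list, 22 measured, likewise had none called (2 higher and 1 lower at the unadjusted threshold), with a median of 0.35.

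Ephrin signalling was represented on both sides of the cell contact. EFNB2, the membrane ligand ephrin-B2, read 8.56 and 8.25 in SETDB1 OE, against 6.16, 6.96 and 6.63 in empty vector, and EPHB1, a receptor for B-type ephrins, 6.78 and 7.24, against 5.31, 5.45 and 5.35. Neither gene's groups overlapped. EFNB2 rose by a log2 of 1.82 (SE 0.30, adjusted p = 0.0448) and EPHB1 by 1.64 (SE 0.28, adjusted p = 0.0499). Both calls needed all 5 arrays: with 1 left out, adjusted p was 0.0599 to 0.474 for EFNB2 and 0.103 to 0.30 for EPHB1.

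A further 3 risers were SCG5, TAC1 and RAB27B. SCG5, which encodes 7B2, a chaperone of the prohormone convertase 2 in neuroendocrine granules, read 7.76 and 7.04 in SETDB1 OE, against 4.51, 4.50 and 4.38 in empty vector. No empty vector or HC/KA-SETDB1 OE array detected it, so it passed the filter through SETDB1 OE alone and could only rise. It was at least 7.16-fold higher (adjusted p = 0.000537). TAC1, the precursor of substance P, read 7.73 and 7.93, against 5.71, 6.21 and 5.79 (log2 1.93, SE 0.23, adjusted p = 0.00642). RAB27B, a GTPase of secretory vesicle docking, read 7.12 and 7.16, against 5.10, 5.26 and 4.91 (log2 2.05, SE 0.20, adjusted p = 0.00109). RAB27B differed by 0.04 between the SETDB1 OE arrays, among the most even of the risers.

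Genes of redox and xenobiotic metabolism rose in part. HMOX1, which breaks down haem and is induced by oxidative stress, read 9.83 and 8.32 in SETDB1 OE, against 6.70, 6.69 and 6.68 in empty vector, with the widest gap between SETDB1 OE arrays of any called gene. It rose by a log2 of 2.38 (SE 0.36, adjusted p = 0.0323), and by 1.63 without SETDB1 OE replicate 1 (adjusted p = 0.125). Without any one of the empty vector arrays it did not pass either (adjusted p of 0.0734 to 0.145). MGST1, a membrane glutathione transferase, read 8.83 and 9.18, against 7.48, 7.66 and 6.92 (log2 1.65, SE 0.26, adjusted p = 0.0402). Other, dimmer MGST1 probes had 1.53 and 0.22. AOX1, aldehyde oxidase, was below detection in all empty vector and HC/KA-SETDB1 OE samples and rose at least 1.94-fold (adjusted p = 0.0448). It too passed the filter through SETDB1 OE alone. SLC22A4, a transporter of ergothioneine, read 5.80 and 5.69 in SETDB1 OE, against 4.44, 4.56 and 4.54 in empty vector (log2 1.23, SE 0.18, adjusted p = 0.0293). The probe used for SLC22A4 was detected on no empty vector array, while a second probe was detected on 1 of them and had 0.74. Of 25 measured genes of the NRF2 list, HMOX1 alone passed, 13 lay above without overlap (52.0%) and 3 below, and the median was 0.29. GCLM, a subunit of the enzyme that starts glutathione synthesis, read 8.19 and 7.96, against 6.75, 7.37 and 6.66 (log2 1.15, adjusted p = 0.215).

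The remaining risers had varied roles. CD24, a small glycoprotein on the cell surface, read 7.61 and 7.16 in SETDB1 OE, against 5.25, 5.05 and 4.81 in empty vector (log2 2.35, SE 0.22, adjusted p = 0.000801), and a dimmer probe had 0.47. UCA1, a long non-coding RNA first found in bladder cancer, read 6.98 and 7.73, against 4.55, 5.34 and 4.53 (log2 2.55, SE 0.30, adjusted p = 0.00604). CD163L1, a scavenger receptor, read 9.75 and 8.78, against 7.17, 7.58 and 7.37 (log2 1.89, SE 0.31, adjusted p = 0.0448). In all of these the lower SETDB1 OE array was above the highest empty vector array by more than 1 log2 unit. H4C8, a histone H4 gene, read 9.02 and 7.94, against 6.37, 6.63 and 5.87 (log2 2.19, SE 0.32, adjusted p = 0.0293). PSG3, a pregnancy-specific glycoprotein below detection in all empty vector and HC/KA-SETDB1 OE samples, rose at least 2.46-fold (adjusted p = 0.0282). It passed the filter through SETDB1 OE alone. Of 44 measured clustered histone genes H4C8 alone passed, 15 lay above without overlap (34.1%) and 3 below, and the median was 0.28. H2BC12 read 12.27 and 12.40, against 11.23, 11.54 and 11.09 (log2 1.05, adjusted p = 0.0849). The DNA replication and S phase list had a median of -0.03 and none of 39 members called (1 higher and 0 lower at an unadjusted p under 0.05), and the mitotic list, 40 measured, a median of 0.04 with none called (1 higher and 1 lower).

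Pigment cell genes fell or lay low. TYR, tyrosinase, the rate-limiting enzyme of melanin synthesis, read 9.48 and 9.5 in SETDB1 OE, against 11.32, 10.62 and 11.04 in empty vector. It fell by 1.5 on the log2 scale (2.84-fold, SE 0.24, adjusted p = 0.0382), and by 1.69 without empty vector replicate 2 (adjusted p = 0.0256). It did not pass without any one of the other 4 arrays of the comparison (adjusted p of 0.140 to 0.430). PMEL, which forms the fibrils of the melanosome, read 10.95 and 11.38, against 13.38, 12.89 and 12.97 (log2 -1.92, adjusted p = 0.0848), and TYRP1, a melanosomal enzyme, 7.89 and 7.80, against 10.43, 8.94 and 9.43 (log2 -1.76, adjusted p = 0.232). MITF itself read 8.40 and 7.98, against 9.61, 8.81 and 9.54 (log2 -1.13, adjusted p = 0.200). SOX10, a lineage factor upstream of MITF, was nearly level at -0.22 (adjusted p = 0.843). Of the 7 melanocytic markers 6 lay below empty vector without overlap (85.7%, against 16.4% of all genes), with a median of -1.13.

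In bulk RNA, fewer cells of a type and less RNA per cell cannot be told apart. The summed linear level of the 7 melanocytic markers was 6342 and 6531 in SETDB1 OE, 7627 to 12356 in HC/KA-SETDB1 OE, and 13136 to 19996 in empty vector. The HC/KA-SETDB1 OE arrays were thus also below empty vector on that sum, in which PMEL weighs most. For PMEL the log2 fold change of HC/KA-SETDB1 OE against empty vector was -1.80 (limma adjusted p = 0.0677). That of SETDB1 OE against HC/KA-SETDB1 OE was -0.11 (adjusted p = 0.899), so PMEL was about as low with the mutant. For TYR the same 2 values were 0.12 (adjusted p = 0.865) and -1.62 (adjusted p = 0.00772).

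Of 25 measured melanosome and melanin genes TYR alone passed, none lay above empty vector without overlap and 13 lay below (52.0%), and the median was -0.47. APOE, a lipid carrier listed here since melanosomes use it to shape PMEL fibrils, read 7.89 and 8.74 in SETDB1 OE, against 10.51, 10.45 and 10.47 in empty vector (log2 -2.16, adjusted p = 0.166). TSPAN10 read 6.99 and 8.07, against 9.44, 8.93 and 8.90 (log2 -1.56, adjusted p = 0.123). Of 30 measured genes on a list of MITF, its regulators and other targets, 18 lay below without overlap (60%) and 4 above, with a median of -0.53. CEACAM1, an adhesion receptor and MITF target, read 6.01 and 6.41 in SETDB1 OE, against 8.08, 7.88 and 7.96 in empty vector, and fell by 1.76 (SE 0.30, adjusted p = 0.0495). PPARGC1A, which drives mitochondrial gene expression, read 5.88 and 5.39, against 8.46, 6.92 and 7.94 (log2 -2.14, adjusted p = 0.123). In the fit on the 5 arrays PMEL, APOE and PPARGC1A passed as well (adjusted p = 0.00842, 0.00782 and 0.0374), and TYRP1 and MITF did not.

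CEACAM1 had a difference of like size in both constructs. It read 5.92, 7.05 and 6.44 in HC/KA-SETDB1 OE, so that group overlapped with SETDB1 OE. Its log2 fold change was -1.51 for HC/KA-SETDB1 OE against empty vector (adjusted p = 0.0544) and -0.26 for SETDB1 OE against HC/KA-SETDB1 OE (SE 0.30, adjusted p = 0.675). The TYR promoter is shown with the M-box core CATGTG, a sequence MITF binds, in capitals. The motif lay in 2 of 8 faller windows (TYR and CEACAM1), in 2 of 24 riser windows and in 6.17% of all. The stretch is chr11:89177725-89177874 on the plus strand (RefSeq, GRCh38.p14), the 150 bases before the start.
TYR: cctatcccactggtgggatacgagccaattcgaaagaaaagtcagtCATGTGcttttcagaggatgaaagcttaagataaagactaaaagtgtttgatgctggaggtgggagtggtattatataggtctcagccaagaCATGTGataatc
The matches begin 104 and 12 bases before the start in TYR, and 41 bases before it in CEACAM1.

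Markers of dedifferentiated melanoma lay on the opposite side. Of 25 measured, 15 lay above empty vector without overlap (60%, against 15.7% of all genes) and 1 below, 23 had a positive fold change and the median was 0.81, although TPM1 alone passed. Besides IL6, AXL, FOSL1 and NT5E, given above, WNT5A, a ligand of non-canonical WNT signalling, read 8.29 and 9.44 in SETDB1 OE, against 6.84, 7.65 and 6.69 in empty vector (log2 1.80, adjusted p = 0.123). NRP1, a semaphorin and VEGF coreceptor, named after its values were seen, read 9.28 and 9.68, against 6.72, 7.65 and 6.93 (log2 2.38, adjusted p = 0.128). In the fit on the 5 arrays 6 of the 25 passed, all higher: AXL, FOSL1, IL6, NRP1, NT5E and TPM1. The list was chosen with earlier results of these samples known, so its counts are a description and no independent evidence of a direction.

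**Figure D4:**
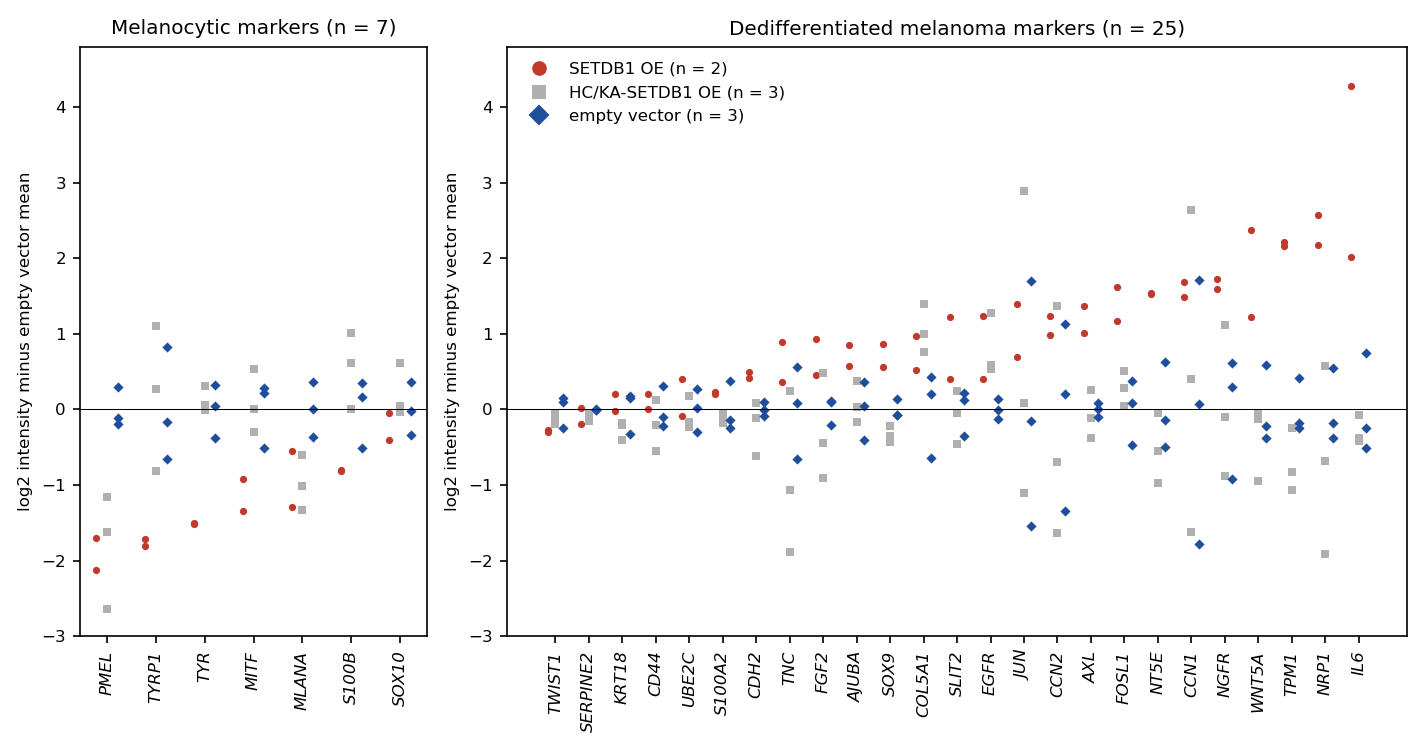
Log2 intensity minus the empty vector mean for 7 melanocytic markers (left panel) and 25 markers of dedifferentiated melanoma (right panel), each gene with SETDB1 OE (2 red circles) left of HC/KA-SETDB1 OE (3 grey squares) and empty vector (3 blue diamonds). The red points lie below 0 for all 7 melanocytic markers and above 0 for most of the others, with CCN1, CCN2 and JUN spread widely in the empty vector arrays.

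The other fallers included genes of neurons, metabolism and the cytoskeleton. QPRT, the enzyme that feeds quinolinate into NAD synthesis, read 7.52 and 8.47 in SETDB1 OE, against 10.29, 10.02 and 10.17 in empty vector, and had the largest fall among called genes, 2.17 on the log2 scale (4.49-fold, SE 0.31, adjusted p = 0.0265). Upstream of it, KYNU, kynureninase, read 11.53 and 10.91, against 9.85, 10.12 and 9.27 (log2 1.47, adjusted p = 0.259), and NAMPT, the entry enzyme of the salvage route, had 0.67 (adjusted p = 0.290). Enzymes of NAD metabolism thus lay on both sides. Of 23 measured genes of that list, 1 fell, none rose (4 higher at an unadjusted p under 0.05) and the median was -0.10.

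PALM, paralemmin, a lipid-anchored membrane protein abundant in brain, read 6.75 and 7.12 in SETDB1 OE, against 8.91, 8.62 and 8.81 in empty vector (log2 -1.84, SE 0.29, adjusted p = 0.0382). Other, dimmer PALM probes had -1.02 and -0.09. SV2A, a synaptic vesicle protein, read 6.24 and 6.01, against 7.38, 7.60 and 7.99 (log2 -1.53, SE 0.23, adjusted p = 0.0330). HES6, a bHLH factor that promotes neuronal differentiation, read 8.21 and 8.49, against 9.87, 10.02 and 9.46 (log2 -1.43, SE 0.22, adjusted p = 0.0358). None of the 3 overlapped between the groups. Of 30 measured neuronal and synaptic genes these 3 fell, SCG5 rose, and the median was 0.09. Without overlap 6 lay above and 6 below (20% each), near the 15.7% and 16.4% of all genes. PER2, the neighbour of HES6 in the RefSeq gene order, had a log2 fold change of 1.28 (adjusted p = 0.448).

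TUBB4A, a beta-tubulin of brain, read 6.92 and 7.66 in SETDB1 OE, against 9.36, 8.67 and 9.33 in empty vector, and fell by 1.83 (SE 0.31, adjusted p = 0.0477). No other of the 17 measured tubulins passed, and TUBB3, the neuronal form, lay on the other side at 0.40 (adjusted p = 0.588). HSPA2, a member of the HSP70 family best known from the testis, read 7.63 and 8.21, against 9.10, 9.29 and 9.5 (log2 -1.38, SE 0.23, adjusted p = 0.0477), while HSPA8, the constitutive family member, had 0.62 (adjusted p = 0.496) and the median of 27 heat shock genes was 0.02. FAM167B read 6.78 and 7.23, against 8.39, 8.37 and 8.62 (log2 -1.45, SE 0.23, adjusted p = 0.0402). Among tubulins and among heat shock genes, 2 members each were lower at an unadjusted p under 0.05.

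Chromatin genes gave no call. Among 36 measured SETDB1 partners and genes of the H3K9 machinery none passed (1 higher and 1 lower at an unadjusted p under 0.05), 4 lay above and 7 below without overlap, and the median was 0.01. ATF7IP, the stabilising partner of SETDB1, read 4.44 and 4.41 in SETDB1 OE, against 5.04, 4.89 and 4.6 in empty vector (log2 -0.42, adjusted p = 0.515), close to the detection limit. SETDB2 read 9.11 and 8.70, against 9.60, 9.13 and 9.49 (log2 -0.50, adjusted p = 0.461). Interferon-stimulated genes, which rise in other systems when SETDB1 is lost, had none of 36 called (6 higher and 2 lower at the unadjusted threshold) and a median of 0.11. Antigen presentation genes had none of 22 called (0 in either direction at the unadjusted threshold) and a median of -0.04.

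**Figure D5:**
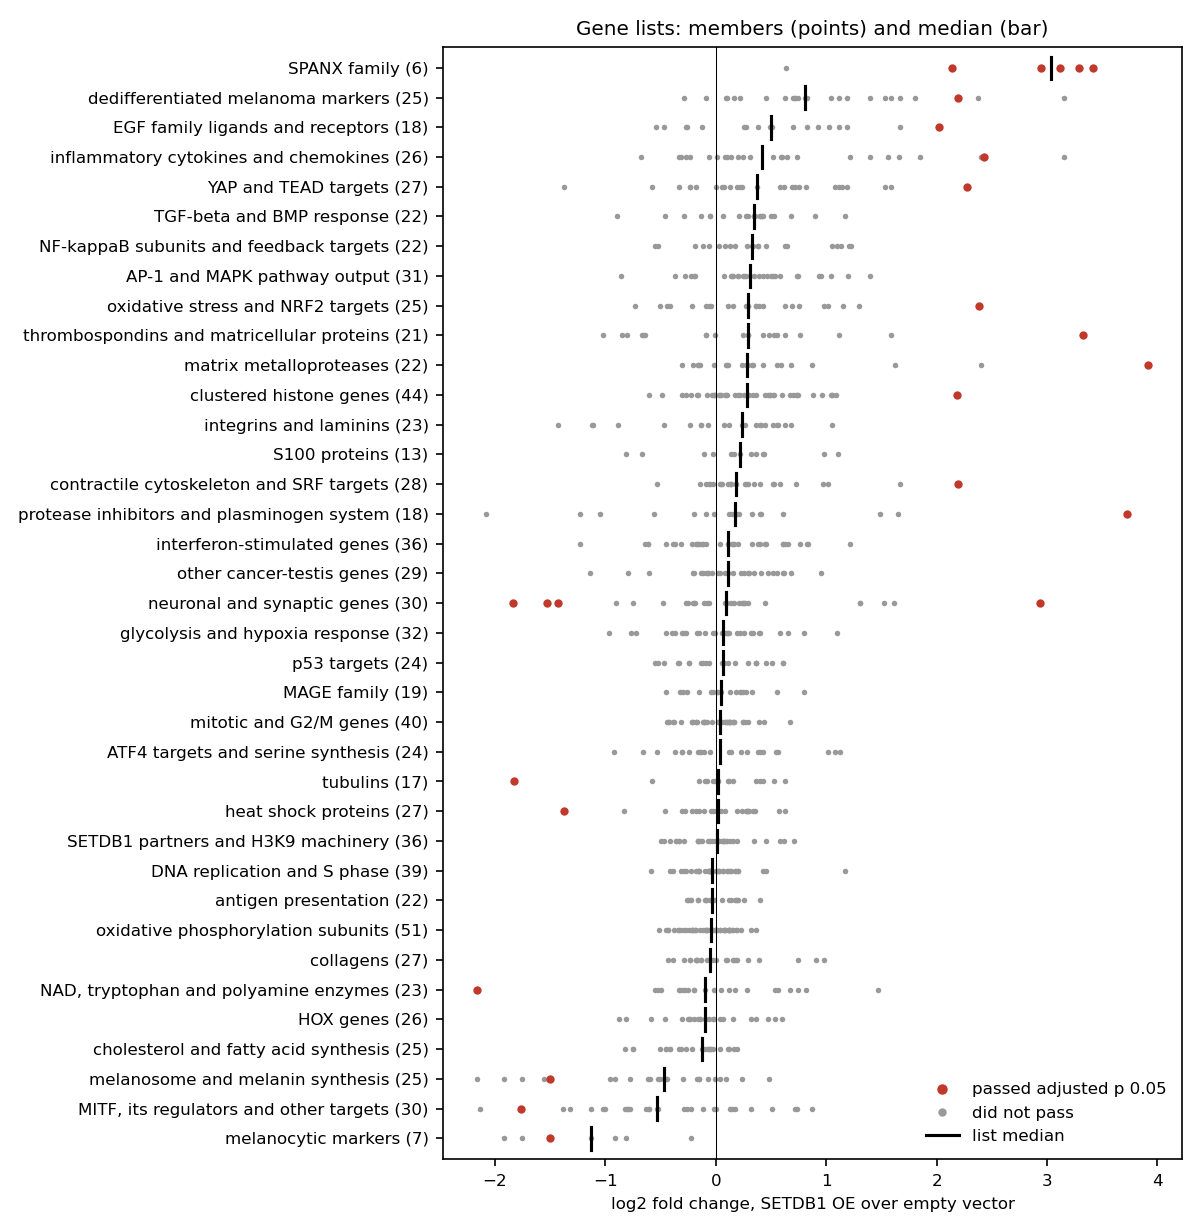
Log2 fold change of SETDB1 OE over empty vector for the measured members of 37 gene lists (number measured in brackets), with called genes in red, other members in grey and the list median as a black bar, sorted by median. SPANX genes stand alone at the top (3.04), and dedifferentiation markers follow (0.81). At the bottom lie melanosome genes (-0.47), MITF with its regulators and other targets (-0.53), and melanocytic markers (-1.13). Lists share members, so their medians are not independent. The melanosome and melanocytic lists share TYR and PMEL, among others. The dedifferentiation markers share AXL, IL6, NT5E, FOSL1 and TPM1 with other lists.

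Several other lists had medians between the quartiles of all genes. Oxidative phosphorylation (51 measured) had a median of -0.04, p53 targets (24) 0.06, glycolysis and hypoxia (32) 0.07, ATF4 targets (24) 0.04, collagens (27) -0.05 and HOX genes (26) -0.10, and none of their members passed. Of the oxidative phosphorylation genes 14 lay below empty vector without overlap (27.5%) and 5 above. The medians of p53 targets and collagens were -0.13 and -0.24 on SETDB1 OE replicate 1, against 0.14 and 0.20 on replicate 2, so both turned sign between the arrays. At an unadjusted p under 0.05 these 6 lists had at most 3 members in either direction. Integrins and laminins (23 measured) had a median of 0.24 and S100 proteins (13) 0.22, with none called (1 higher and 4 lower, and 2 higher and 1 lower, at the unadjusted threshold). Both medians lay above the upper quartile of all genes, but that of integrins and laminins was -0.12 on SETDB1 OE replicate 1 and 0.35 on replicate 2. Cholesterol and fatty acid synthesis had 9 of 25 members below empty vector without overlap (36.0%) and none above, with a median of -0.12. Its member with the smallest p, FDPS, which makes farnesyl diphosphate, read 9.36 and 9.09 in SETDB1 OE, against 9.85, 9.98 and 10.09 in empty vector (log2 -0.75, adjusted p = 0.248).

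Most called genes differed from the mutant construct as well. Set directly against HC/KA-SETDB1 OE, where 4.34% of all genes passed, 27 of the 28 risers and 7 of the 9 fallers passed, in the same direction. The exceptions were MGST1 (log2 1.04, adjusted p = 0.0522), HES6 (-0.84, adjusted p = 0.0580) and CEACAM1. This comparison shares the SETDB1 OE arrays with the one against empty vector, so the counts are not independent. None of the 37 passed in HC/KA-SETDB1 OE against empty vector (limma, 1 higher and 6 lower at an unadjusted p under 0.05). These counts were not set against the share of all genes passing in that comparison. They therefore do not show that the differences are particular to SETDB1 OE. There the risers had log2 fold changes of -0.71 to 0.61, and MMP3, THBS1 and the SPANX A to D genes had 0.00, -0.19 and -0.66 to 0.37.

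Just outside the threshold lay 10 further genes without overlap between the groups, at adjusted p of 0.0539 to 0.0572. DKK1, a secreted inhibitor of WNT signalling, read 10.32 and 10.22 in SETDB1 OE, against 6.70, 8.43 and 6.50 in empty vector (log2 3.06, SE 0.53, adjusted p = 0.0544), with empty vector replicate 2 again nearest to SETDB1 OE. A second DKK1 probe had 1.44. KREMEN2, a receptor for DKK proteins, lay the other way at 6.91 and 6.97, against 8.18, 8.16 and 8.35 (log2 -1.29, adjusted p = 0.0544). IRAK2, a kinase of interleukin 1 signalling, read 7.94 and 7.55, against 6.29, 6.59 and 6.0 (log2 1.45, adjusted p = 0.0539). The others were IL6 and PLPP3 on the higher side, and GYG2, GNG7, P2RX7, MERTK and IRAK1BP1 on the lower side, with log2 fold changes of -2.14 to -1.20 for those 5. Second probes had -1.66 for GYG2, -0.73 for MERTK, -0.50 for KREMEN2 and -0.07 for IRAK1BP1, so that of IRAK1BP1 was level.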

How the data were processed

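Bead arrays of 8 RNA samples were analysed. The authors deposited a table of probe intensities without background correction or normalization, with a detection p-value per probe and array, per the file headers. The authors also deposited processed log2 values, whose scale and centring are not stated, and these served as an alternative. Intensities were background-corrected on the detection p-values (offset 16), quantile-normalized and log2-transformed with neqc of limma 3.58.1 under R 4.3.3. Of 48107 probes 5 had a missing cell. Symbols came from the platform annotation: 30110 probes had 1 symbol, 8 several and 17984 none listed, and 30071 matched RefSeq.

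A probe passed where 2 or more arrays had a detection p under 0.05, and the brightest passing probe stood for its gene. SETDB1 OE has 2 arrays, so a gene detected in that group alone could pass, and could then only show a rise. The limma model had a term per group over all 8 arrays, with adjustment over 13974 genes. "At least" folds set the higher group's mean against the larger of the lowest detected signal and the probe's own value. Named were SETDB1, called genes, the next 10 by p, the 5 members with the smallest p in each of 41 lists, the 6 widest gaps between SETDB1 OE arrays, direct neighbours and families of called genes; other names were chosen after their values were seen. Members and lists were chosen with earlier results of these data known. The fit was also run on simulated data, which is a check of the code and no evidence on these samples. The number of arrays limits the precision. Alternatives covered background, scaling, detection filter, probe choice, arrays in the fit, array weights and the replicate block.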

Additional observations from a re-analysis of the deposited data

How the results depend on the processing

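The count of rises stayed within 1.5 times of 28 in 8 of 18 alternatives. Rises and falls numbered 31 and 10 with detection at p under 0.01, and 27 and 7 with the mean of passing probes. They numbered 20 and 5 without background correction, 15 and 1 with an offset of 50, 18 and 5 on the authors' processed values, and 16 and 0 without a detection filter (931 falls at an unadjusted p under 0.05), where 20044 genes were tested. Scaling to the 75th percentile gave 27 and 14, with the median of all genes at -0.06 log2. The fit on 5 arrays gave 73 and 82, and array weights gave 82 and 58. Leaving out 1 array gave 11 to 58 rises and 0 to 45 falls. With a SETDB1 OE array left out, the lone array is assumed to vary like the other groups. The replicate block gave 40 and 11, 33 of them among the 37; the groups share only 2 replicate numbers (correlations of deviations 0.147 and 0.119), which does not establish a pairing. No called gene reversed against empty vector, which settings that leave out or weight arrays could not have shown, as the arrays did not overlap. CEACAM1 against HC/KA-SETDB1 OE was -0.53 to 0.032 with 1 array left out and reversed without HC/KA-SETDB1 OE replicate 2; the cause was not tested. Of 738 list medians under alternatives 87 moved beyond the spread between arrays. Over all alternatives the median was 1.70 to 3.23 for SPANX genes, 0.49 to 0.99 for dedifferentiation markers, 0.19 to 0.70 for the EGF list, 0.22 to 0.58 for YAP and TEAD targets, 0.16 to 0.48 for AP-1 output, 0.14 to 0.41 for TGF-beta response, -0.57 to -0.28 for melanosome genes and -0.53 to -0.25 for the MITF list.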
